A study of Homo sapiens with 6 samples.

Results

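CELF2 and its relatives were followed in RNA-seq of HCT116 cells, a human colorectal carcinoma line, 24 h after irradiation (IR) with 8 Gy. The set comprised 9 of the 20020 genes in the count table, the 6 CELF genes (CELF1 to CELF6) and the 3 MBNL genes (MBNL1 to MBNL3), found by their gene symbols. CELF2 was chosen by its difference between the groups compared here, so its values are a description without a test. The other 8 members were included for their family and not for their values. Of the 9 members, 7 passed edgeR's filter on low counts and 12925 genes were tested in all, while CELF3 and CELF6 did not pass.

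The 3 CAD-KO2+IR libraries came from cells in which CAD (caspase-activated DNase, gene symbol DFFB), a nuclease that cuts chromatin during apoptosis, was knocked out with lentiCRISPRv2. The 3 sgVec+IR libraries came from cells carrying the vector control. All 6 libraries were from irradiated cells, so the comparison contains no unirradiated sample. The dose and time are those of the study's figure legend for this experiment. A single knockout line was sequenced. The sources do not say whether it was 1 clone, nor whether the 3 libraries of a group were separate cultures, so the p-values below may measure technical spread only.

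CELF and MBNL proteins bind RNA and choose between exons during splicing. CELF proteins recognize GU-rich elements and, besides splicing, act on the decay and translation of mRNAs in the cytoplasm. MBNL proteins (muscleblind-like) bind with zinc fingers and often act on the same exons in the opposite direction. The antagonism is best known from myotonic dystrophy, in which repeat RNA sequesters MBNL proteins and CELF1 activity increases. CELF1 and CELF2 are widely expressed, whereas CELF3 to CELF6 are mainly neural genes. In colorectal cells, CELF2 is known for binding the mRNA of the cyclooxygenase PTGS2.

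CELF2 (ENSG00000048740.19) lies on chromosome 10 from 10798397 to 11336675 on the plus strand (GRCh38, GENCODE 29), a span of 538 kb with 17 annotated transcripts. RefSeq (GRCh38.p14) gives 10 start windows for it, each running from 250 bases before to 50 bases after a transcription start. Their content of CpG, the dinucleotide that DNA methylation acts on, ranged from 5 to 54, against a median of 14 over 35116 windows. The richest window and 1 of the 2 windows with the fewest CpG are shown to display this range, both on the plus strand and with each CpG in capitals. The second window lies before the start that GENCODE gives for the gene.
CELF2 start window with 54 CpG, chr10:11018248-11018547: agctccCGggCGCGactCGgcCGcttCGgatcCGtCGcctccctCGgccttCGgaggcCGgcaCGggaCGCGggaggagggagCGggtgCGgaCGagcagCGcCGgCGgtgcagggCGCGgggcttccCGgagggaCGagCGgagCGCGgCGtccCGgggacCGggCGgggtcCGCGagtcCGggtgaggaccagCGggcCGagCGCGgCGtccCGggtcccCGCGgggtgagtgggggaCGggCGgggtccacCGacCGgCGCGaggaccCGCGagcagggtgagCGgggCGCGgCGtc
CELF2 start window with 5 CpG, chr10:10796589-10796888: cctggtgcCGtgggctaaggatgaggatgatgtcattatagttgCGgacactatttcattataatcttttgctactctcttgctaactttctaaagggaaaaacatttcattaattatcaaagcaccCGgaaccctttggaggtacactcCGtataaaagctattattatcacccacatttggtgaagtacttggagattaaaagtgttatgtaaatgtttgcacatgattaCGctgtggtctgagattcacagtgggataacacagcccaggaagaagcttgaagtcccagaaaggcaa
Of all windows, 0.464% held at least as many CpG as the first and 33.7% held at most as many as the second. The start windows of CELF1, which numbered 5, held from 1 to 44 CpG. The counts do not tell which start was used in these cells, and no methylation was measured in them.

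The coding sequences show how far reads of CELF2 could be told from those of its closest relative in HCT116 cells. CELF1 and CELF2 were identical at 74.4% of 1522 aligned coding bases, and the longest run they shared was 23 bases. Their most similar stretch of 150 bases, which reaches into the last RNA recognition motif of both proteins, is shown with the bases that differ in capitals.
CELF1 coding bases 1261-1410: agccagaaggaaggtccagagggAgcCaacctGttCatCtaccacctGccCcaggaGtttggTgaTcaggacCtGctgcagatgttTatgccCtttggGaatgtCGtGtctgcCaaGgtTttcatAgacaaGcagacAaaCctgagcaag
CELF2 coding bases 1282-1431: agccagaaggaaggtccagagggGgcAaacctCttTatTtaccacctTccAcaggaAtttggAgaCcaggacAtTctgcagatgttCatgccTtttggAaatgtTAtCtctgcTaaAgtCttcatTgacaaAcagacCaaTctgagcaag
Of the 25 differences, 23 fell at the third position of a codon. None of the 11292 distinct 50-base words in CELF2 transcripts occurred in a GENCODE transcript of any other gene, on either strand. Of the words in CELF6 transcripts, 88.7% also occurred in transcripts of the overlapping annotations AC009690.1 and AC009690.3, so its count is uncertain. Of those in MBNL1, 13.4% were shared with antisense transcripts, and reads from both strands cannot be told apart because the strand setting of the counting is not given in the sources used here. The MBNL genes differed from each other to a similar degree. MBNL1 and MBNL2 were identical at 70.1% of 1086 aligned coding bases, with no shared run over 14 bases. Their most similar 150 bases, which run from the end of the first zinc finger through the second, hold 29 differences in capitals, 24 of them at the third position of a codon.
MBNL1 coding bases 97-246: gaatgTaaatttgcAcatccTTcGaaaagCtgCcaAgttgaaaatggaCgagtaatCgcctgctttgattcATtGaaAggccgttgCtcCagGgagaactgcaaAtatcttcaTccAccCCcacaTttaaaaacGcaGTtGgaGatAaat
MBNL2 coding bases 97-246: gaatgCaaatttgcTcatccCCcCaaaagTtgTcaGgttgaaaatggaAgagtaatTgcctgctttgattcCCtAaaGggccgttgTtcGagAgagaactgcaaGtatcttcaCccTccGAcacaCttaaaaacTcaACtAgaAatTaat

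The libraries held from 14032994 to 19574144 counts. In 2 of them, CAD-KO2+IR replicate 2 and sgVec+IR replicate 3, genes of low GC content were high relative to the mean of all libraries (Spearman correlation of a gene's deviation with its GC of -0.699 and -0.663), while the other 4 gave 0.512 to 0.739. With sgVec+IR replicate 3 left out, CAD-KO2+IR replicate 2 had no counterpart in this trend among the controls, and the reverse held too. In sgVec+IR replicate 3, 7561 genes had no count, against 4577 to 5232 elsewhere. The member transcripts span a wide GC range, from 36.4% in MBNL3 to 61.1% in CELF3, against a median of 48.7% over tested genes, and member differences are also given without these libraries where they move. DFFB had 185, 192 and 217 counts in CAD-KO2+IR and 357, 335 and 297 in sgVec+IR, a log2 fold change of -1.02. Of 10 colorectal epithelium markers, EPCAM, KRT8, KRT18, KRT19 and CDH1 were counted in every library, while CDX1 was at 0 throughout and VIL1 and LGALS4 had at most 5 counts. The neuronal markers STMN2, NEFL and NEFM and the blood and stroma markers CD3E, CD2, DCN and LUM had no count in any library, while SYT1, MAP2, SNAP25, COL1A1, ACTA2 and CORO1A of the same lists were counted in every library.

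CELF2 transcripts were nearly absent from CAD-KO2+IR and readily counted in sgVec+IR. The counts were 18, 44 and 25 in the CAD-KO2+IR libraries and 691, 689 and 1154 in the sgVec+IR libraries. As CPM, counts per 1000000 of a library's total after TMM adjustment, the levels were 0.976, 2.32 and 1.42 CPM against 42.3, 47.2 and 81.4 CPM. Every CAD-KO2+IR library was below every sgVec+IR library, and the lowest sgVec+IR level was 18.2 times the highest CAD-KO2+IR level. The group means were 1.57 ± 0.684 and 56.9 ± 21.3 CPM (SD, n = 3 each), a ratio of 36.2, and the fitted log2 fold change of CAD-KO2+IR over sgVec+IR was -5.16 with a standard error (SE) of 0.427. The highest level in each group was in the library in which low-GC genes were high, and CELF2 has a GC content of 42.1%. Without sgVec+IR replicate 3 the log2 fold change was -4.81, and after a correction of every library for GC content it was -5.14 (SE 0.235). The remaining counts in CAD-KO2+IR were above the floor of 3 counts in each library. The 18 counts of replicate 1 carry a 95% Poisson interval of 10.7 to 28.4 counts, which covers counting error only. Bulk RNA does not separate fewer cells with the transcript from less transcript per cell.

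**Figure D1:**
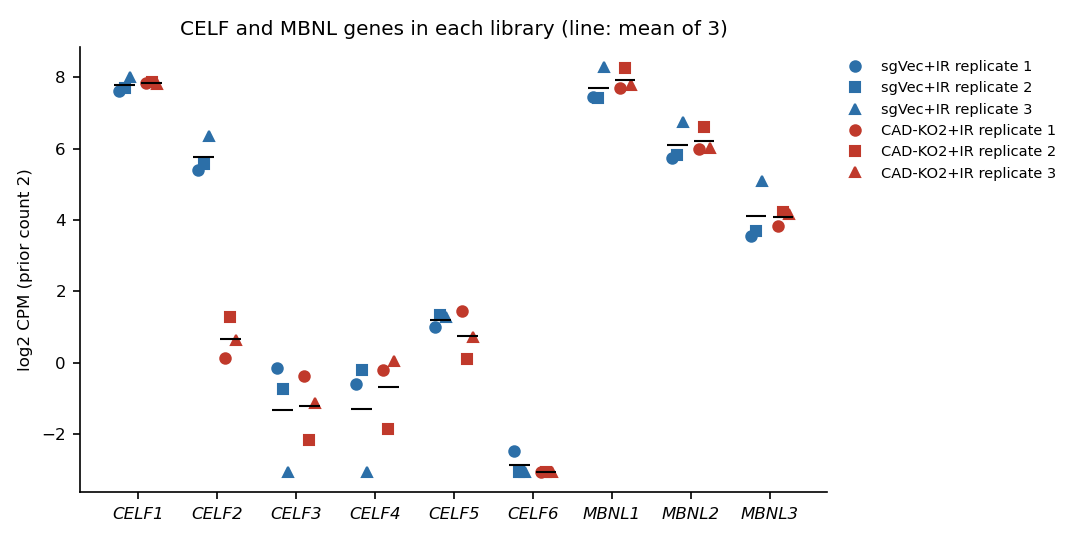
Level of each CELF and MBNL gene in each library, as log2 CPM with a prior count of 2, for the 3 sgVec+IR libraries (blue) and the 3 CAD-KO2+IR libraries (red), with a line at the mean of 3. CELF2 separates the groups by several log2 units, CELF1 and MBNL1 are the highest in both, and CELF3, CELF4 and CELF6 sit near the bottom of the scale.

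CELF2 was the second CELF gene of these cells in the control line and a trace in the knockout line. Its share of all counts on the 6 CELF genes was 17.4% to 24% in sgVec+IR and 0.42% to 0.982% in CAD-KO2+IR. For the lowest of these, 18 of 4283 counts, the 95% Wilson interval was 0.266% to 0.663%. CELF1 took 75.3% to 81.2% in sgVec+IR and 97.9% to 98.5% in CAD-KO2+IR. The summed level of the 6 genes was 232, 236 and 227 CPM with the knockout and 242, 258 and 339 CPM without it. Those sums did not overlap between the groups, and the gap between the nearest libraries was small beside the range within sgVec+IR. Both the sums and the shares include CELF2, which was chosen for its difference, so neither is a separate result. The level of CELF1 itself overlapped between the groups.

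Levels of different genes were compared per kilobase of merged exon. In sgVec+IR, MBNL1 (21.8 ± 8.01 CPM per kb) and CELF1 (21.0 ± 3.01) stood highest, followed by MBNL2 (14.8 ± 6.15), CELF2 (5.19 ± 1.94), MBNL3 (1.6 ± 1.03), CELF5 (0.366 ± 0.045), CELF3 (0.0957 ± 0.0902), CELF4 (0.0665 ± 0.0597) and CELF6 (0.00568 ± 0.00984), each as mean ± SD of 3 libraries. MBNL1 and CELF1 lay within each other's spread, as did CELF3 and CELF4, while MBNL2 was below both MBNL1 and CELF1 in each of the 3 libraries. In CAD-KO2+IR, the levels were 24.5 ± 5.6 for MBNL1, 21.8 ± 0.478 for CELF1, 15.4 ± 4.06 for MBNL2 and 1.38 ± 0.201 for MBNL3. CELF2, at 0.143 ± 0.0623 CPM per kb, then came below CELF5 at 0.282 ± 0.139 in the means, but above it in replicate 2 (0.211 against 0.158).

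No member other than CELF2 was called. A call required an adjusted p under 0.05 (edgeR quasi-likelihood test, Benjamini-Hochberg over all 12925 genes) and a fold change of at least 1.5, which 4 genes or 0.0309% of those tested met in either direction. CELF2 is among these 4, which is no test of it, and its adjusted p missed 0.05 under limma-voom, with a replicate block and in 5 of 6 fits with 1 library left out. All 6 other tested members had an adjusted p of 1.0 in edgeR. Their groups all overlapped, whereas the groups of 10.2% of all tested genes did not.

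CELF1 (ENSG00000149187.19, chromosome 11, 47465933 to 47565569, minus strand), the broadly expressed CELF protein that binds GU-rich mRNAs, had nearly the same level in the 2 lines. It stood at 227, 233 and 223 CPM in the knockout libraries and at 197, 207 and 256 CPM in the controls. The CAD-KO2+IR values lay inside the range of the controls, and the log2 fold change was 0.05 (SE 0.155, adjusted p = 1.0, edgeR). NDUFS3 and PTPMT1, both in the count table, overlap CELF1 on the opposite strand.

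CELF5 (ENSG00000161082.13, chromosome 19, 3224703 to 3297076), a mainly neural relative, was counted at a low level in every library. It had 48, 18 and 27 counts in CAD-KO2+IR against 31, 35 and 33 in sgVec+IR. The CAD-KO2+IR libraries lay on both sides of the controls, with a log2 fold change of -0.37 (SE 0.448, adjusted p = 1.0, edgeR), or -0.81 without CAD-KO2+IR replicate 1 and -0.08 without its replicate 2. CELF4 (ENSG00000101489.20, chromosome 18, 37243047 to 37566037), a neuronal member, had 14, 3 and 16 counts in CAD-KO2+IR and 9, 11 and 0 in sgVec+IR, and its fitted log2 fold change of 0.44 had an SE of 0.966 and was -0.10 without sgVec+IR replicate 3. Its lowest count in each group was again in the library with high low-GC genes. CELF3 (ENSG00000159409.15), another neural member with 12, 2 and 6 counts against 13, 7 and 0, showed the same libraries lowest. CELF6 (ENSG00000140488.16) had 1 count in all, in sgVec+IR replicate 1. The floor of 3 counts corresponds to 0.158 to 0.212 CPM at the depth of these libraries. That bound holds for reads counted on CELF6 only. Most of its 50-base words are shared with overlapping annotations, so its reads may have been counted elsewhere or dropped. A difference in CELF6 was not detectable.

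In each of the 3 MBNL genes, the range within each group exceeded the difference between the group means. MBNL1 (ENSG00000152601.18, chromosome 3, 152243828 to 152465780, plus strand), the main muscleblind protein of most tissues, had 207, 309 and 218 CPM in the knockout libraries and 173, 170 and 310 CPM in the controls. The highest values of both groups were alike, and the log2 fold change was 0.17 (SE 0.29, adjusted p = 1.0, edgeR). MBNL2 (ENSG00000139793.21, chromosome 13, 97221434 to 97394120, plus strand), the paralog best known from brain, had 63.4, 98.5 and 64.7 CPM against 53.5, 56.5 and 107 CPM. Its log2 fold change was 0.06 (SE 0.329, adjusted p = 1.0, edgeR), and the same library was highest in each group as for MBNL1. MBNL3 (ENSG00000076770.16, chromosome X, 132369317 to 132489968, minus strand), known as an inhibitor of muscle differentiation, had 14.1, 18.7 and 17.8 CPM against 11.7, 12.8 and 33.9 CPM. The controls spanned the whole range of the knockout libraries, with a log2 fold change of -0.20 (SE 0.43, adjusted p = 1.0, edgeR).

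These 3 genes have the lowest GC content of the set, 39.9% in MBNL1, 36.8% in MBNL2 and 36.4% in MBNL3. CAD-KO2+IR replicate 2 and sgVec+IR replicate 3 were above the mean of the 6 libraries for every one of them, by 0.46 and 0.47 log2 units in MBNL1, 0.47 and 0.59 in MBNL2, and 0.14 and 0.99 in MBNL3. Across the 6 libraries, log2 CPM of MBNL1 and MBNL2 had a Pearson r of 0.984, and 0.844 after the GC correction. The points share libraries and base composition. For MBNL1 and MBNL3 the values were 0.859 and 0.187, and for MBNL2 and MBNL3 they were 0.89 and -0.0418. CELF1, with a GC content of 47.1%, had an r of 0.892 with MBNL1, 0.897 with MBNL2 and 0.921 with MBNL3. After the GC correction these were 0.56, 0.417 and 0.832. The shares among MBNL counts moved less than the levels did, with MBNL1 at 72.5% to 72.8% in CAD-KO2+IR and 68.7% to 72.7% in sgVec+IR. The share of MBNL3 was less steady, at 4.39% to 5.93% in CAD-KO2+IR and 4.89% to 7.51% in sgVec+IR, highest in sgVec+IR replicate 3.

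**Figure D2:**
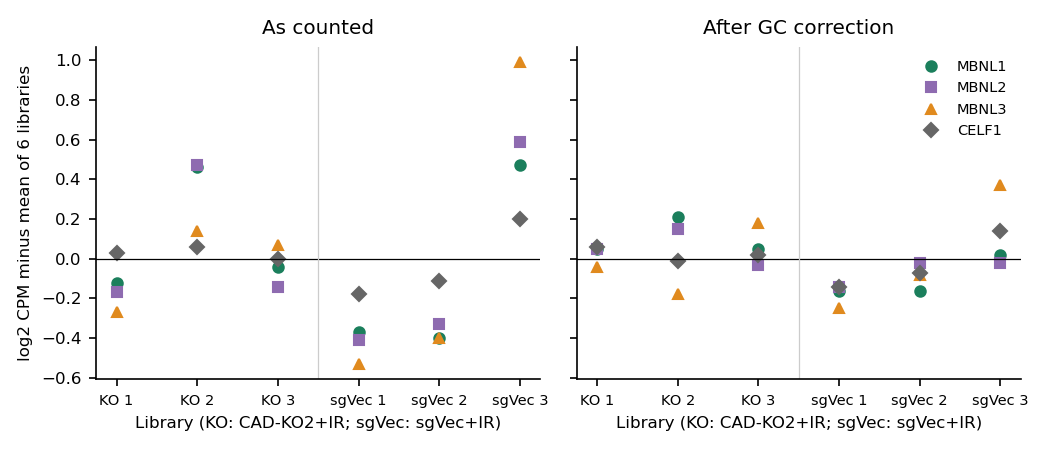
Deviation of MBNL1, MBNL2, MBNL3 and CELF1 from their mean over 6 libraries, in log2 CPM, as counted (left) and after the correction for GC content (right), by library. As counted, MBNL1 and MBNL2 are high in CAD-KO2+IR replicate 2 and sgVec+IR replicate 3. After correction MBNL1 and MBNL2 lie within 0.21 of their means.

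Leaving out sgVec+IR replicate 3 moved all 3 MBNL differences upward. The log2 fold changes were then 0.51 in MBNL1 (adjusted p = 0.407), 0.46 in MBNL2 (adjusted p = 0.431) and 0.47 in MBNL3 (adjusted p = 0.416, edgeR), so the direction of MBNL3 turned. CELF1 was at 0.17 (adjusted p = 0.485). In each of these 4 genes all 3 CAD-KO2+IR libraries were then above both remaining controls, as in 22.0% of all genes tested. Under limma-voom with sample weights, which gave sgVec+IR replicate 3 a weight of 0.0404, MBNL1 (0.33, adjusted p = 0.00492), MBNL2 (0.24, adjusted p = 0.0452) and MBNL3 (0.47, adjusted p = 0.0178) passed an adjusted p of 0.05 with a fold change under 1.5. Upward differences past that p alone made up 10.5% of the genes in that fit. Leaving out CAD-KO2+IR replicate 2 gave -0.04 in MBNL1, -0.18 in MBNL2 and -0.28 in MBNL3. After the GC correction, the levels were 7.86, 8.01 and 7.85 log2 CPM in CAD-KO2+IR and 7.64, 7.64 and 7.82 in sgVec+IR for MBNL1, and these no longer overlapped, as in 21.0% of genes. The difference was then 0.21 (SE 0.0839, adjusted p = 0.492), and those of MBNL2 and MBNL3 were 0.12 and -0.06.

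**Figure D3:**
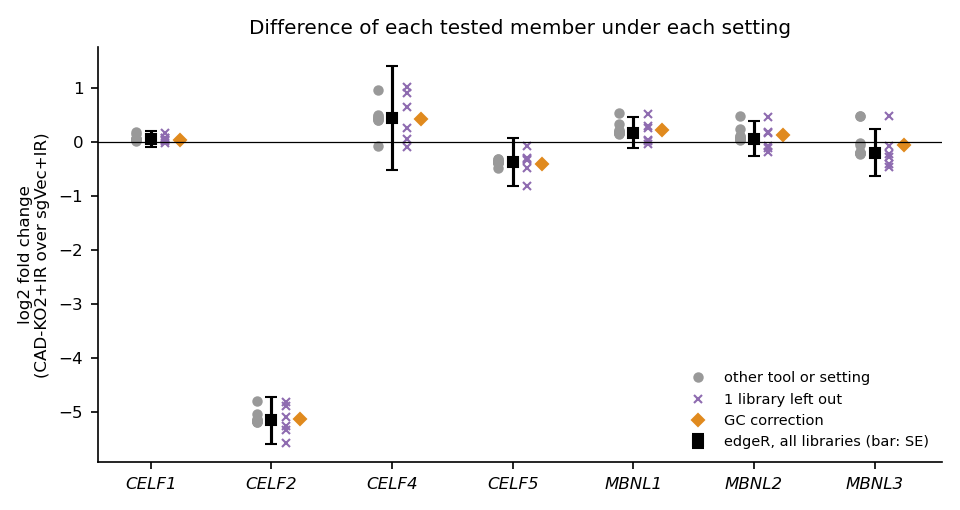
Log2 fold change of CAD-KO2+IR over sgVec+IR for each tested member, with edgeR on all libraries as a black square with its SE, other tools and settings in grey, each library left out in turn as purple crosses, and the GC correction in orange. CELF2 stays between -5.57 and -4.80, and every other member lies around 0 with settings on both sides of it for CELF1, CELF4 and the MBNL genes.

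The neighbours of CELF2 on chromosome 10 were read next. The 5 nearest tested genes on each side spanned 5696 kb, and none of the 10 was called, where 0.0309% of all tested genes were. The groups did not overlap in GATA3, ECHDC3 and DHTKD1, each lower in CAD-KO2+IR, and overlapped in the others. Over all tested genes 10.2% did not overlap, in either direction. A link of these genes to CELF2 was not tested. Their log2 fold changes ran from -0.46 to 0.22 with a median of -0.20, against a median of -0.01 over all tested genes. Without sgVec+IR replicate 3 the median of the 10 was 0.04 and their range -0.37 to 0.32. The nearest tested gene before CELF2, 2723 kb away, was GATA3, a transcription factor of T cells and epithelia, at 2.82 ± 0.275 CPM in the knockout line and 3.9 ± 0.929 CPM in the control (log2 fold change -0.46, SE 0.305, adjusted p = 1.0, edgeR, and -0.26 without sgVec+IR replicate 3). The nearest after it, 117 kb away, was USP6NL, a GTPase-activating protein of endocytic traffic, with 57.1 ± 7.11 CPM and 63.4 ± 11.2 CPM (-0.15, SE 0.197, adjusted p = 1.0, edgeR, and 0.00 without that library). GENCODE places 7 further genes over CELF2, 6 of them on the opposite strand, and none is in the count table.

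**Figure D4:**
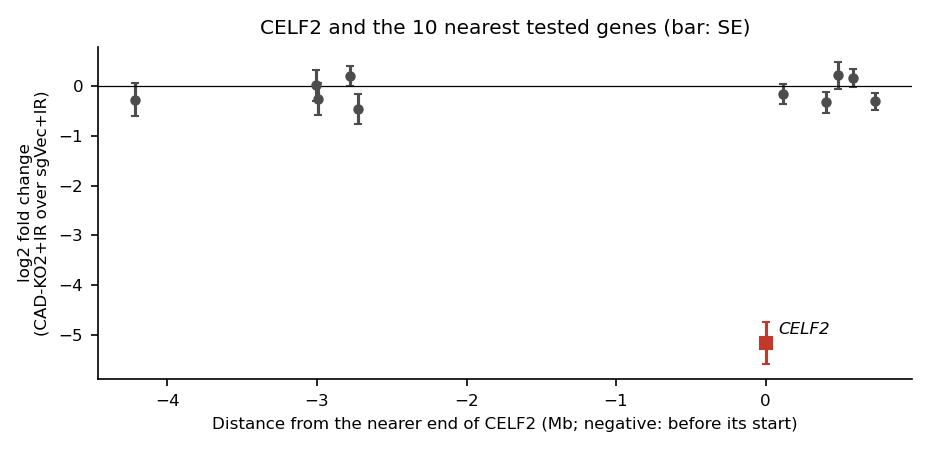
Log2 fold change with its SE for CELF2 (red) and the 10 nearest tested genes, by distance in megabases from the nearer end of CELF2. The neighbours lie between -0.46 and 0.22, and CELF2 lies at -5.16.

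The genes whose levels most resembled those of CELF2 over the 6 libraries were CSMD3, CA2, ALPK3, ANXA10 and CPE, with a Pearson r of log2 CPM from 0.99 to 0.997. The points form 2 separate groups, in each of these genes the CAD-KO2+IR libraries were the lower group, and no p is given. CSMD3, a large membrane protein with CUB and sushi domains, had 12, 20 and 14 counts against 702, 680 and 975. Its log2 fold change of -5.96 was of the order of that of CELF2. The others had smaller differences, -1.50 for ANXA10, a member of the annexins, -1.02 for ALPK3, an atypical kinase of muscle, -0.61 for CA2, a carbonic anhydrase, and -0.39 for CPE, a prohormone-processing carboxypeptidase. Spearman's rho with CELF2 was 1 in 45 genes, these 5 included. The other members had an r with CELF2 from -0.416 in CELF4 to 0.39 in CELF5.

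Splicing regulators of other families showed no called gene. Of 29 regulators such as RBFOX, PTBP, ESRP, ELAVL and RBM proteins, 22 were tested, 10 with a higher and 12 with a lower level in CAD-KO2+IR, and the median log2 fold change was -0.06. Among those 22, 5 (22.7%) had groups that did not overlap, against 10.2% of all tested genes. ESRP1, an epithelial splicing regulator, had 163 ± 15 CPM in the knockout libraries and 213 ± 52.3 CPM in the controls (log2 fold change -0.38, and -0.16 without sgVec+IR replicate 3), and RBPMS2, an RNA-binding protein of smooth muscle, had 29.8 ± 1.28 and 36.8 ± 5.13 CPM (-0.31). KHDRBS1, the signalling-linked regulator also called SAM68, had 342 ± 12.6 and 387 ± 29.8 CPM (-0.18, and -0.11 without that library). Of 14 SR proteins, which promote exon inclusion, 13 were tested, with a median of 0.02 and 2 (15.4%, against the same 10.2%) whose groups did not overlap. SRSF5 had 156 ± 4.23 and 124 ± 3.16 CPM (0.33, unadjusted p = 0.047, adjusted p = 1.0, edgeR), and SRSF4 had 128 ± 2.41 and 118 ± 3.1 CPM (0.12). All 21 hnRNP proteins, which often repress exons, were tested, with a median of 0.04 and 5 (23.8%, against 10.2%) whose groups did not overlap. HNRNPA3 had 212 ± 12.3 and 176 ± 22.5 CPM (0.27, and 0.17 without sgVec+IR replicate 3), HNRNPR had 259 ± 1.53 and 221 ± 8.23 CPM (0.22), and HNRNPF had 355 ± 21.0 and 401 ± 40.0 CPM (-0.18, and -0.09 without it). Without that library the medians of the 3 lists were 0.02, 0.18 and 0.02. All errors are SD with n = 3. Of the genes in these 3 lists, edgeR gave an unadjusted p under 0.05 to 1, SRSF5, against 368 of all 12925 genes tested. DESeq2 and limma-voom with sample weights called 0 genes of the 3 lists at both thresholds. In the weighted fit, genes of these lists passed an adjusted p of 0.05 with a fold change under 1.5, in both directions. Among them were QKI (0.58, adjusted p = 0.00107), HNRNPH1 (0.33, adjusted p = 0.000635) and RBPMS2 (-0.38, adjusted p = 0.00409, limma-voom with sample weights). Upward differences past that p alone made up 10.5% of all genes in that fit.

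Transcripts listed as targets of CELF and MBNL proteins were counted last, at the level of whole genes, since a table of gene counts holds no exon usage. Of 19 genes listed as splicing targets, 14 were tested, 3 higher and 11 lower in the knockout line. Over all 12925 tested genes, 6214 were higher and 6711 lower. DMPK and CNBP were among the lower ones of the list, and whether their exons are under this control was not checked. The median was -0.09 on the log2 scale, against -0.01 over all tested genes, and no gene was called. Without sgVec+IR replicate 3 it was -0.33, again against -0.01. That fit keeps CAD-KO2+IR replicate 2, where low-GC genes were high, with no such library left among the controls. After the GC correction the differences ran from -0.30 in DMPK to 0.57 in CLCN1, against -0.28 to 0.52 in the main fit. ITGA6, an integrin whose exon choice depends on MBNL1, had 3924, 5027 and 3747 counts against 2769, 2318 and 2593. The groups did not overlap, with a log2 fold change of 0.44 (SE 0.158, unadjusted p = 0.0284, adjusted p = 1.0, edgeR). In this list 2 of the 14 tested genes (14.3%), ITGA6 and INSR, had groups that did not overlap, against 10.2% of all tested genes. INSR, the insulin receptor, whose exon choice CELF1 and MBNL1 set in opposite directions, had 44.7 ± 3.42 and 53.3 ± 4.2 CPM (-0.25).

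Of 9 mRNAs bound by CELF proteins in the cytoplasm, 8 were tested, 3 higher and 5 lower. The median was -0.06, and -0.00 without sgVec+IR replicate 3. The groups did not overlap in 1 of the 8 (12.5%), against 10.2% of all tested genes. JUN, an AP-1 subunit with an unstable mRNA, had 524, 407 and 513 counts in CAD-KO2+IR and 317, 265 and 202 in sgVec+IR, and every knockout library was higher. Its log2 fold change was 0.61 (SE 0.221, unadjusted p = 0.0289, adjusted p = 1.0, edgeR). Of all genes in these 2 lists, JUN alone was called by limma-voom with sample weights, while DESeq2 called 0. That weighted fit called 5.15% of all genes. Other genes of the 2 lists passed an adjusted p of 0.05 in it with a fold change under 1.5, in both directions. Among them were ITGA6 (0.38, adjusted p = 0.001), DMPK (-0.42, adjusted p = 0.0119) and CDKN1A (-0.49, adjusted p = 0.000335, limma-voom with sample weights). In edgeR, only ITGA6 and JUN of these lists had an unadjusted p under 0.05, against 368 of all 12925 genes tested. PTGS2, named here after its values were seen because CELF2 is known to bind its mRNA, had 13, 18 and 15 counts against 9, 11 and 0. Its fitted log2 fold change of 0.91 had an SE of 0.799 (adjusted p = 1.0, edgeR) and was 0.37 without sgVec+IR replicate 3.

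**Figure D5:**
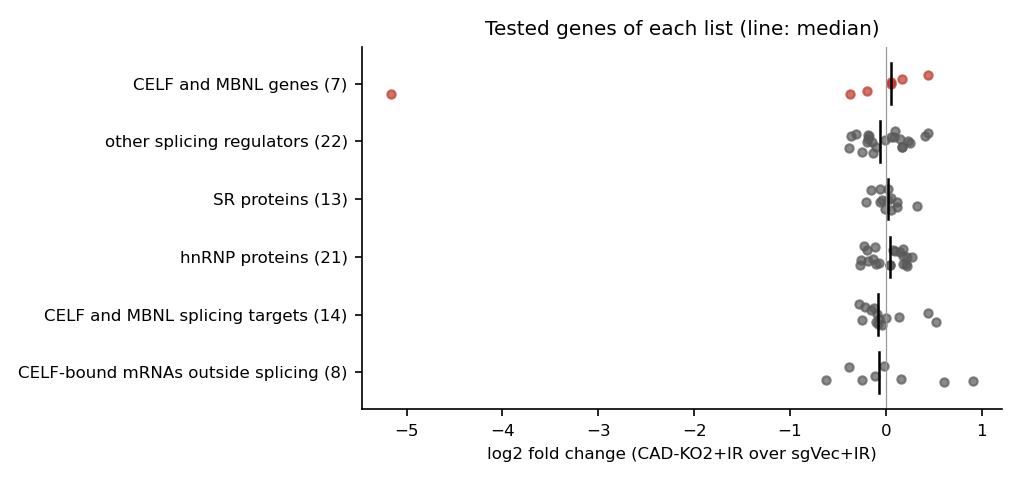
Log2 fold change of CAD-KO2+IR over sgVec+IR for the tested genes of each list, 1 point per gene, with the number tested in brackets and a line at the median. CELF2 is the single point near -5, and the medians of the 5 other lists lie between -0.09 and 0.04.

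Beside CELF2, the marker lists were read as whole lists. CDH1, an epithelial cadherin, had 66.7 ± 2.95 CPM in the knockout libraries against 97.1 ± 2.9 CPM (log2 fold change -0.54, unadjusted p = 0.00752, adjusted p = 1.0, edgeR), and KRT18 had 476 ± 26.0 and 383 ± 94.8 CPM (0.31, and 0.12 without sgVec+IR replicate 3). Of the 7 epithelial markers tested, 2 were higher and 5 lower in CAD-KO2+IR. In 2 of the 7 (28.6%) the groups did not overlap, against 10.2% of all tested genes. Their median log2 fold change was -0.06, and -0.45 without sgVec+IR replicate 3, against -0.01 over all tested genes in either fit. The summed level of the 10 epithelial markers ranged over 2801 to 3997 CPM in the knockout line and 2093 to 4098 CPM in the control. For the 10 neuronal and glial markers it was 69.2 to 88.0 and 84.9 to 133 CPM, most of it from SYT1, a synaptic vesicle protein, at 55.6 ± 7.83 and 79.0 ± 16.9 CPM (-0.51, and -0.31 without that library). For the 10 blood markers it was 2.69 to 7.12 and 3.67 to 11.3 CPM, and for the 10 muscle and fibroblast markers 33.1 to 46.9 and 17.7 to 60.5 CPM. Of the 40 markers 19 were tested, and none of these was called by edgeR or by DESeq2. EdgeR gave an unadjusted p under 0.05 to 2 of the 19, CDH1 and SYT1, and to 368 of all 12925 genes tested. Limma-voom with sample weights called 4, SNAP25 higher and CDH1, CORO1A and ACTA2 lower in CAD-KO2+IR, in a fit that called 5.15% of all genes. Their part in the difference of CELF2 was not tested.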

How the data were processed

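RNA-seq of 6 HCT116 libraries was analysed. The authors cleaned reads with fastp, counted them with featureCounts and deposited raw counts per gene. The aligner, annotation and strand setting are not given in the sources used here. The submitters' processing notes name the genome build mm10, a mouse build, and their labels give genomic DNA as the molecule, while every gene identifier in the table is human and the protocol describes RNA. Columns were matched to samples by title.

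Genes were filtered with filterByExpr (minimum count 10, minimum total count 15), scaled by TMM and compared with edgeR's quasi-likelihood test (edgeR 4.0.16, R 4.3.3, Benjamini-Hochberg adjustment), with thresholds of 0.05 and 1.5 as in the study's methods, which used DESeq2. The SE is the log2 fold change over the square root of the F statistic. Alternatives were DESeq2 1.42.0, limma-voom (limma 3.58.1) with and without sample weights, other scalings and filters, a replicate block and each library left out. DESeq2 without sgVec+IR replicate 3 and a GC correction (lowess span 0.3) were added after seeing the data. The fits were tested on simulated data. Of the gene identifiers, 19823 matched GENCODE 29, whose build need not be that of the counts, so its positions and sequences describe the genes and not the reads. Coding sequences were aligned globally.

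Members and lists were chosen with earlier results of these data known. Named genes were all members, the 5 most correlated with CELF2 by Pearson r of log2 CPM (prior count 2), its nearest tested neighbours, DFFB, and of each list the called genes or else up to 3 with the largest differences among those whose groups did not overlap. PTGS2, QKI, HNRNPH1, CDKN1A, DMPK, CNBP, CLCN1 and the markers at 0 or with high counts were named in addition.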

Additional observations from a re-analysis of the deposited data

How the results depend on the processing

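The difference of CELF2 kept its direction under all 17 alternatives, with log2 fold changes from -5.57 to -4.80, and from -5.57 to -4.81 when 1 library was left out. Members passing both thresholds numbered 1 in the main result and 0 under limma-voom. With 1 library left out the number was 0 to 1, and it was 1 only without sgVec+IR replicate 3, so each of the other 5 libraries ended the call of CELF2 when removed. With the replicate number as a block it was 0. The sources used here do not say whether same-numbered libraries were paired. Their deviations from the group means correlated at 0.468, -0.545 and -0.379. The signs followed CAD-KO2+IR replicate 2 and sgVec+IR replicate 3, the libraries with high low-GC genes, which correlated with each other at 0.552. These values therefore can neither show nor exclude a pairing. The block changed no other call among the members.

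Calls over all genes numbered 4, against 41 in DESeq2, 0 in limma-voom, 666 with sample weights, 0 with the block, 42 after the GC correction, 122 in DESeq2 without sgVec+IR replicate 3, 282 at an unadjusted p, and 0 to 22 with 1 library left out. The study, with DESeq2 and the same thresholds, reported many more genes than the 41 of DESeq2 here, and the reason was not tested. Among CELF and MBNL targets the count of 0 became 1, JUN, with sample weights and at an unadjusted p. Splicing regulators of other families stayed at 0 under all 18 alternatives.

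Directions turned in CELF1 (-0.02 to 0.17 with 1 library left out), CELF4 (-0.10 to 1.02, lowest without sgVec+IR replicate 3, and -0.08 in DESeq2 without that library), MBNL1 (-0.04 to 0.51, lowest without CAD-KO2+IR replicate 2), MBNL2 (-0.18 to 0.46, below 0 without CAD-KO2+IR replicate 2 and without either of the first 2 controls) and MBNL3 (-0.46 to 0.47, above 0 without sgVec+IR replicate 3, and 0.47 with sample weights and 0.48 in DESeq2 without that library). The causes were not tested. Of the 5 genes most like CELF2, 3 stayed among the first 5 without sgVec+IR replicate 3. Depth limits CELF3, CELF4 and CELF6, which had at most 16 counts in any library, and shared sequence leaves the count of CELF6 uncertain as well.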
